A study of Danio rerio with 15 samples.

Results

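Skin from a zebrafish (Danio rerio) melanoma line was set against skin from wild-type zebrafish on 9 of the study's 15 Affymetrix arrays, each of which measured total RNA of 1 sample. The columns were chosen by title: 6 arrays of skin from fish of the genotype mitf-BRAFV600E;p53-/-, called mutant skin here, and 3 arrays of wild-type skin. The genotype combines a mutant form of the kinase BRAF under the promoter of the pigment cell gene mitf with loss of the tumour suppressor p53, so the transgene is restricted to cells in which this promoter works while the p53 loss is in every cell. The tissue label is abnormal skin for the mutant arrays and normal skin for the wild-type arrays. Each piece of mutant skin was cut from directly beside a visible melanoma. The wild-type fish carry the label Tu, and a length of their lateral skin was used. All fish were 4 to 8 months old, and the remaining 6 arrays of the study are melanomas of the mutant line. Genotype, strain, a neighbouring tumour and the place on the body all differ between the 2 groups and cannot be told apart. The labels do not say whether fish were pooled, and sex, batch and scan date are not among them.

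The skin of an adult zebrafish holds keratinocytes, mucous cells and ionocytes, pigment cells of the neural crest lineage, scales with their bone-forming cells, nerves and immune cells, and body wall muscle lies beneath it. BRAF signals through the MAP kinase pathway, whose activity is followed by feedback genes such as the phosphatase gene dusp6 and the inhibitor gene spry4, while p53 switches on genes of cell cycle arrest and cell death after DNA damage. MHC class 1 proteins show T cells peptides that were cut inside the cell by the immunoproteasome, and class 2 proteins show peptides taken up from outside. In zebrafish the class 1 genes of the U lineage and immunoproteasome genes lie together in a core region, and the set of genes present there differs between haplotypes.

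All values are on a log2 scale whose zero differs from probe set to probe set and is unstated, so a gene can be compared between arrays, and genes cannot be compared in level with each other. For the same reason the labelled tissue could not be checked by absolute levels of its markers. The mean level of 44 keratinocyte genes, each set to its mean over the 15 arrays, was 0.23 to 1.58 in wild-type skin, 1.22 to 1.99 in mutant skin 1, 3, 4 and 5, and -1.63 and -0.45 in mutant skin 2 and 6. These last 2 arrays stood apart: across genes they correlated at 0.80 with each other and at 0.67 and 0.73 with wild-type skin 1, against -0.61 to 0.23 with the other mutant skin arrays. The list of 37 oocyte genes holds ccnb2, which is on the cell cycle list too, so its members are not all particular to the ovary. The level of the oocyte list was 3.88 and 4.53 in mutant skin 2 and 6, 2.24 and 0.51 in mutant skin 1 and 4, and -2.22 and -1.65 in mutant skin 3 and 5. It was 3.87, 1.61 and -1.88 in wild-type skin 1 to 3, with group means of 1.21 and 1.2. Counts are therefore also given without mutant skin 2 and 6, a setting chosen after seeing the data. It keeps wild-type skin 1, whose oocyte level was 3.87, so it leaves the groups unequal in oocyte content. The genotypes were not checked by expression here.

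**Figure D1:**
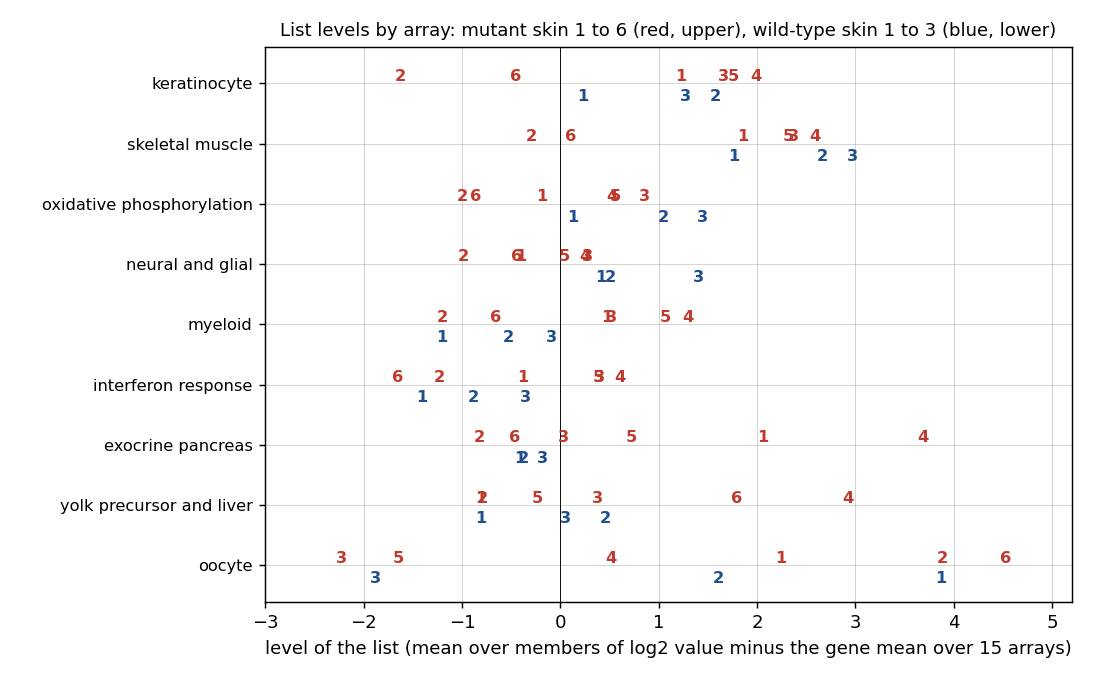
Levels of 9 gene lists on each skin array (x axis, mean log2 value of the members after each gene's mean over 15 arrays was subtracted); digits are array numbers, red for mutant skin and blue for wild-type skin. Mutant skin 2 and 6 lie lowest in keratinocyte and muscle genes and highest in oocyte genes among the mutant arrays, and the wild-type arrays are spread along the oocyte axis as well.

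Few genes separated the skins beyond the spread between arrays. Of 8793 genes tested with limma, 2 rose and 10 fell in mutant skin at a Benjamini-Hochberg adjusted p under 0.05, which is 0.136% of the genes. In all 12 the 2 groups did not overlap, which the choice by p-value favours, so it adds no separate support. By probe set the count was 30 of 15502 (0.194%), 4 higher (0.0258%) and 26 lower (0.168%). At an unadjusted p under 0.05 there were 638 genes (7.26%), of which 247 were higher (2.81%) and 391 lower (4.45%). The groups did not overlap in 281 genes (3.2%), with mutant skin higher in 152 (1.73%) and lower in 129 (1.47%). The median change over all genes was -0.02, with a standard error of 0.49 for the median gene. Without mutant skin 2 and 6 the count was 16 genes, 7 higher and 9 lower, and 9 of them were among the 12. The fit held all 15 arrays, so its standard errors rest in part on the spread among the 6 melanomas. With only the 9 skin arrays in the fit, 7 genes were called, and 6 of them were among the 12. As 0.136% of all genes were called, a list with no called gene is near that share.

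**Figure D2:**
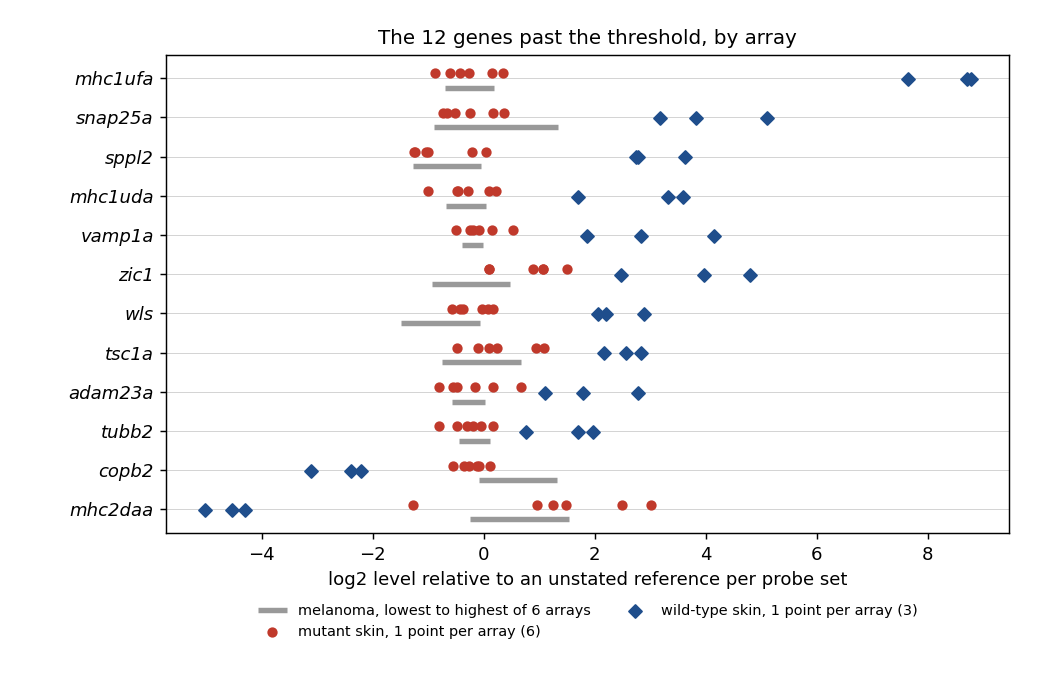
Log2 level (x axis, relative to an unstated reference per probe set) of the 12 genes past the threshold; each point is 1 array of mutant skin (red) or wild-type skin (blue), and the grey bar spans the 6 melanoma arrays. For mhc1ufa the 3 wild-type arrays lie between 7.64 and 8.77 and all mutant skin arrays between -0.88 and 0.35.

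The largest differences were in genes of the major histocompatibility complex. The class 1 gene mhc1ufa, which encodes a peptide-presenting heavy chain of the U lineage, stood at 7.64, 8.71 and 8.77 in wild-type skin 1 to 3 and at -0.27, -0.88, 0.35, 0.14, -0.43 and -0.60 in mutant skin 1 to 6. Every wild-type array was thus far above every mutant array, and within each group the arrays lay close together. The gene fell by 8.66 ± 0.35 on the log2 scale, a 403-fold difference (levels -0.28 ± 0.46, n = 6, against 8.37 ± 0.63, n = 3, limma adjusted p = 1.43e-09), and the call was kept in all 24 alternative settings. The 6 melanoma arrays, which come from the same line, lay between -0.69 and 0.19 and share no value with the wild-type range.

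A second class 1 gene of the U lineage, mhc1uda, also fell, by 3.19 ± 0.39 (limma adjusted p = 0.00137). Its wild-type levels were 1.70, 3.32 and 3.60, and its mutant levels were -0.28, -1.01, 0.23, 0.09, -0.46 and -0.48, without overlap. The gene has 2 probe sets whose changes were -4.71 and -1.67, so they differ in size while the groups did not overlap in either. With only the 9 skin arrays in the fit, mhc1uda was not called. The gene IDs of mhc1ufa and mhc1uda were not matched in the RefSeq table, and their names are those of the array annotation.

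The class 2 gene mhc2daa, which encodes the alpha chain of a class 2 molecule, went the other way. It stood at -4.54, -5.03 and -4.3 in wild-type skin and at 1.47, -1.28, 0.96, 3.01, 2.5 and 1.25 in mutant skin 1 to 6. The lowest mutant array, mutant skin 2, was still above every wild-type array. The gene rose by 5.94 ± 0.71, or 61.4-fold (limma adjusted p = 0.00122), and melanoma arrays ranged from -0.25 to 1.53. One of the called probe sets without a single gene symbol had a similar course, with -6.26, -4.18 and -4.04 in wild-type skin, 1.70, -1.13, 1.59, 2.97, 2.52 and 1.38 in mutant skin and a change of 6.33 ± 0.73 (limma adjusted p = 0.000525).

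The partners of class 2 and class 1 molecules did not pass the test. The invariant chain genes cd74a and cd74b, whose products guide class 2 molecules through the cell, had changes of 0.40 ± 0.59 and 0.10 ± 0.76, and b2m, the light chain of class 1 molecules, had one of -0.42 ± 0.51 (cd74a and cd74b chosen after their values were seen). The class 1 gene mhc1uka, of the same lineage as mhc1ufa, had a change of 0.60 ± 0.61, and the Z lineage gene mhc1zca one of -1.75 ± 0.89 (both chosen after their values were seen). Their arrays overlapped between the groups.

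Genes of the immunoproteasome, which cuts peptides for class 1 molecules, were lower in value. The subunit gene psmb9a stood at -0.78, -0.13 and -0.53 in wild-type skin and at -3.41, -3.70, -2.83, -3.05, -3.49 and -1.51 in mutant skin, without overlap, a change of -2.52 ± 0.52 that missed the threshold (limma adjusted p = 0.104) and passed it without mutant skin 2 and 6 (limma adjusted p = 0.0451). Over 24 alternatives its adjusted p ranged from 7.54e-05 to 1.0, and 7 called it. The subunit genes psmb8a and psmb12 had changes of -2.36 ± 0.81 and -2.14 ± 0.83, and psmb13a, chosen after its values were seen, one of -1.97 ± 0.59 (limma adjusted p = 0.462, 0.542 and 0.386). In these 3 genes wild-type skin 1 was the lowest wild-type array and mutant skin 6 the highest mutant array, and the groups overlapped. By the gene order of the RefSeq table (assembly GRCz12tu), psmb13a, psmb8a, psmb12 and psmb9a are consecutive protein-coding genes of chromosome 19 between mhc1uba and tap2a. The nearest measured genes on either side, mhc1uka and brd2a, had changes of 0.60 and 0.14, and tapbp.1 and daxx, next to mhc1uka, had changes of -0.21 and 0.66. On the other side, past brd2a, the genes hsd17b8, col11a2, rxrba and sdha had changes of -0.72, -0.19, -0.52 and -1.49. The subunit gene psmb10 had a change of 2.13 ± 1.26 in the other direction, and the regulator genes psme1 and psme2 had changes of 0.36 ± 0.81 and 0.34 ± 0.87. The genes psmb10, psme1, psme2, brd2a, tapbp.1, daxx, hsd17b8, col11a2 and rxrba were chosen after their values were seen.

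Of the 18 measured genes of the list for MHC and antigen presentation, 1 rose and 2 fell, and 6 were lower (33.3%) and 1 higher (5.56%) at an unadjusted p under 0.05. Over all genes the shares called higher and lower were 0.0227% and 0.114%. At an unadjusted p under 0.05 the shares over all genes were 4.45% lower and 2.81% higher. The median of the list was -0.05, near that of all genes. Without mutant skin 2 and 6, 1 member was called higher and 3 lower, against 7 and 9 of all 8793 genes. The third lower member was psmb9a.

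**Figure D3:**
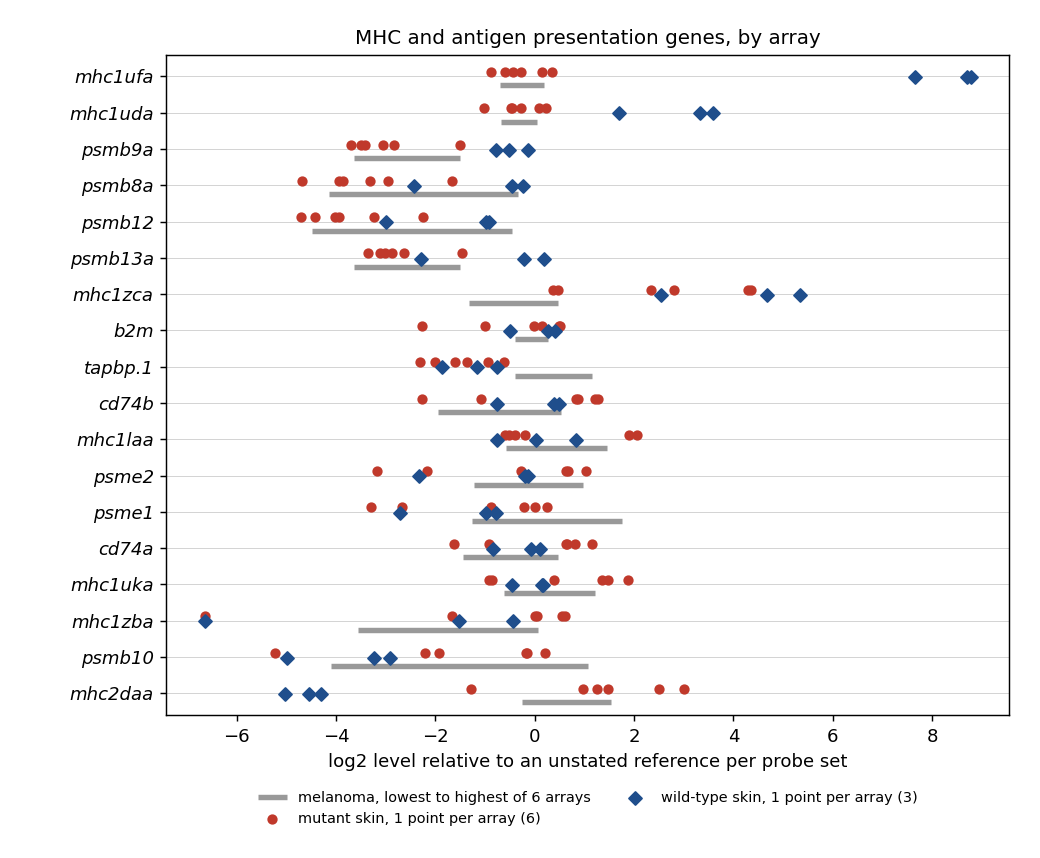
Log2 level (x axis, relative to an unstated reference per probe set) of the 18 measured genes of MHC and antigen presentation, ordered by change; red points are mutant skin arrays, blue diamonds wild-type skin arrays, and grey bars the range of 6 melanoma arrays. The groups do not overlap for mhc1ufa, mhc1uda, psmb9a and mhc2daa.

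Some genes of nerve terminals fell in mutant skin, and most neural genes measured were lower in value. The gene snap25a, which encodes a membrane fusion protein of synaptic vesicle release, stood at 3.82, 3.17 and 5.1 in wild-type skin and at -0.74, -0.67, -0.26, 0.35, -0.51 and 0.16 in mutant skin. It fell by 4.31 ± 0.48, or 19.8-fold (limma adjusted p = 0.000638). Its partner on the vesicle, vamp1a, stood at 2.83, 1.86 and 4.14 against -0.26, -0.50, 0.15, 0.52, -0.08 and -0.20, and fell by 3.00 ± 0.39 (limma adjusted p = 0.00177). The groups did not overlap for either gene, and the melanoma arrays reached at most 1.34 for snap25a and -0.01 for vamp1a. With only the 9 skin arrays in the fit, snap25a was called and vamp1a was not. The gene cplx2a encodes a complexin, a clamp on the same fusion machinery. It stood at 1.35, 1.86 and 3.51 in wild-type skin and at -2.41 to -1.27 in mutant skin, again without overlap, and its change of -4.21 ± 0.82 missed the threshold (limma adjusted p = 0.0784).

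Of the other genes that fell, 2 also have a role in neurons. The adhesion molecule gene adam23a stood at 1.78, 1.09 and 2.77 in wild-type skin and at -0.80 to 0.68 in mutant skin, and fell by 2.08 ± 0.38 (limma adjusted p = 0.0459). The beta tubulin gene tubb2 stood at 1.70, 0.77 and 1.97 and at -0.80 to 0.16, and fell by 1.76 ± 0.30 (limma adjusted p = 0.0298). Both lay near the threshold, and both calls were lost without mutant skin 2 and 6, and also with only the 9 skin arrays in the fit. The calls were lost in 13 of 24 settings for adam23a and in 12 for tubb2, with changes of -2.52 to -1.43 and of -2.12 to -1.26 over the settings.

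The list of 28 neural and glial genes, which does not hold vamp1a, adam23a or tubb2, had 1 called gene, snap25a, and 9 members lower (32.1%, against 4.45% over all genes) and 0 higher at an unadjusted p under 0.05. In 6 members, or 21.4% against 1.47% over all genes, every mutant array was below every wild-type array: snap25a, cplx2a, the myelin gene mbpa (-2.32 ± 1.11), the glial calcium-binding protein gene s100b (-1.83 ± 0.73), the neuronal growth gene stmn2a (-1.71 ± 0.38) and the astroglial filament gene gfap (-1.44 ± 0.36). Here stmn2a and gfap were chosen after their values were seen. The neuronal RNA-binding gene elavl4 had a change of -1.84 ± 0.45 and the calcium-binding gene calb2b one of -1.93 ± 0.50, with 1 wild-type array within the mutant range for each. Of the 28 changes, 26 were below 0 and 2 above, against 51.5% below 0 over all genes, and the median was -0.67. The level of the list was 0.41, 0.51 and 1.41 in wild-type skin and -0.99 to 0.28 in mutant skin, so the groups did not overlap in it. The level of the iridophore list did not overlap either, at -0.45 to 0.18 in mutant skin and -0.65 to -0.50 in wild-type skin. The median of the neural and glial list was -0.46 without mutant skin 2 and 6. In that setting 6 members were lower and 0 higher at an unadjusted p under 0.05, against 354 and 454 of all 8793 genes. In a bulk sample fewer cells of a type and less RNA per cell cannot be told apart, here and for every list that follows.

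**Figure D4:**
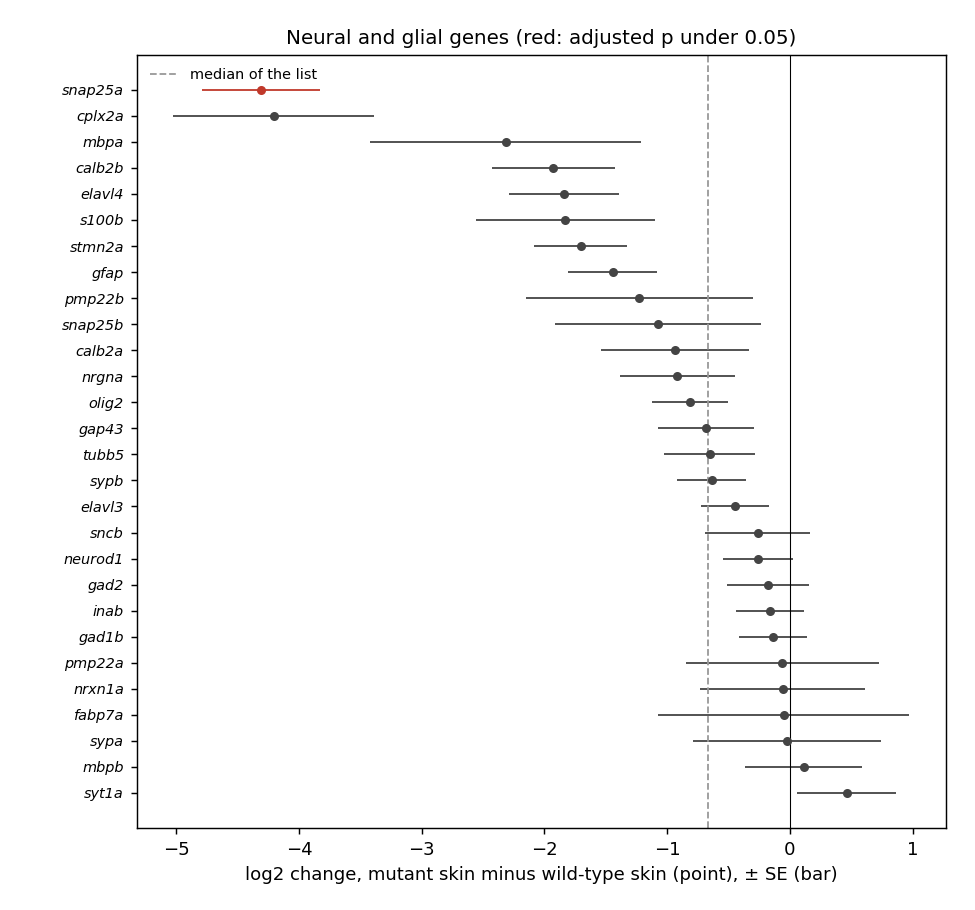
Log2 change (x axis, mutant skin minus wild-type skin) of the 28 neural and glial genes with standard errors of the fit; snap25a, in red, is the member past the threshold, and the dashed line is the list's median, -0.67. All but 2 of the points, those of mbpb and syt1a (chosen after their values were seen), lie below 0.

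Outside the lists, the neuronal genes that follow were chosen after their values were seen and for those values, so they add no support to the list. The groups did not overlap for the axonal transport motor gene kif5aa (-1.61 ± 0.37), the microtubule genes maptb (-1.16 ± 0.27) and dpysl5b (-1.80 ± 0.44), pcp4a (-2.35 ± 0.57) and rtn3 (-2.62 ± 0.57). They did not pass the test (limma adjusted p = 0.129 to 0.188). The gene rapsn, whose product gathers acetylcholine receptors at the nerve-muscle junction, had a change of -2.41 ± 0.55 without overlap (limma adjusted p = 0.155). One of 3 probe sets of the synuclein gene sncgb fell by 2.49 ± 0.41 (limma adjusted p = 0.0182 over probe sets), and the others had changes of -0.31 and -0.23.

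The remaining called genes belong to no list. The intramembrane protease gene sppl2 stood at 2.73, 2.79 and 3.62 in wild-type skin and at -1.26 to 0.04 in mutant skin, and fell by 3.83 ± 0.37, or 14.3-fold (limma adjusted p = 0.000152). The transcription factor gene zic1, which patterns the dorsal somites and neural plate in the embryo, stood at 2.48, 3.96 and 4.79 against 0.09 to 1.51, and fell by 2.96 ± 0.48 (limma adjusted p = 0.0188). The gene zic4, its neighbour in vertebrate genomes and chosen after its values were seen, had a change of -0.47 ± 0.36 with overlap. The gene tsc1a, a brake on mTOR signalling, stood at 2.56, 2.16 and 2.84 against -0.49 to 1.08, and fell by 2.23 ± 0.38 (limma adjusted p = 0.0303). In 15 of 24 settings the tsc1a call was lost, and the zic1 call in 8, among them leaving out mutant skin 2 and 6, wild-type skin 2 or wild-type skin 3 for zic1. With only the 9 skin arrays in the fit, zic1 and tsc1a were not called.

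For 2 called genes the probe sets disagreed. The gene wls, which encodes a carrier that brings Wnt ligands to the cell surface, fell by 2.58 ± 0.32 over its 3 probe sets (limma adjusted p = 0.0014). The changes of these were -5.99 ± 0.60, -1.54 ± 0.65 and -0.20 ± 0.34, and the first had 5.16, 5.07 and 6.15 in wild-type skin against -1.21 to 0.33 in mutant skin. The coatomer gene copb2, whose product coats vesicles of the Golgi, rose by 2.36 ± 0.33 (limma adjusted p = 0.00401), with probe sets at 5.35 ± 0.42, 1.26 ± 0.44 and 0.48 ± 0.30. The first of these had -5.1, -5.14 and -6.64 in wild-type skin, the last of which is the floor of the table, and -0.76 to 0.30 in mutant skin, so its change is a lower bound. A single probe set thus carries most of the gene value for wls and copb2. Without wild-type skin 3, the array at the floor, copb2 was not called.

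At the level of probe sets, 17 of the 30 called sets carry a single symbol, and 5 of these belong to genes whose mean was not called. Beside sncgb these are the genes notch2 and nrarpa, of the Notch receptor and of a feedback inhibitor of Notch signalling, with 1 probe set each that fell, by 1.71 ± 0.28 and 2.47 ± 0.43, while their other probe sets had changes of -0.44 to -0.41 and of -1.60 to -0.27. The fourth is the selenoprotein gene selenow2a, with 1 probe set that fell by 1.85 ± 0.30 and a second at -1.09 ± 0.90. The fifth, the histone gene h2ax, whose product marks DNA breaks, rose by 2.17 ± 0.41 by probe set (limma adjusted p = 0.0482 over probe sets) and missed the threshold by gene (0.0653). It stood at -1.38, -2.80 and -2.13 in wild-type skin and at -0.59 to 0.79 in mutant skin, without overlap. Of the 13 called probe sets without a single symbol, 12 fell and 1 rose. The genes sncgb, notch2, nrarpa and selenow2a were chosen after their values were seen. The largest falls among the unnamed sets were by 6.73 ± 0.40 and 5.82 ± 0.38. The first had 5.3, 6.79 and 6.99 in wild-type skin against -0.89 to 0.17 in mutant skin, and the second 4.48, 6.23 and 5.72 against -1.07 to 0.14.

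Pigment cell genes were compared because the transgene works through the mitf promoter. None of the 9 measured melanocyte genes passed the test, against 0.136% of all genes. The melanocyte regulator mitfa stood at -5.23, -4.08 and -4.45 in wild-type skin and at -4.69, -1.54, -4.17, -3.93, -1.49 and -5.24 in mutant skin 1 to 6, so that mutant skin 2, 4 and 5 were above all wild-type arrays and the other 3 were not. Its change was 1.08 ± 0.91. The melanin synthesis genes dct and tyr had changes of 1.0 ± 1.02 and 0.28 ± 0.78, and the receptor gene kita one of 0.35 ± 0.89. The gene zgc:91968, listed under its synonym mreg, which in mice acts in melanosome transfer, had a change of 2.01 ± 0.83, and the melanosome traffic gene rab32a one of 1.16 ± 0.50. The median of the list was 0.39 and 8 of 9 changes were above 0, against 48.5% over all genes. At an unadjusted p under 0.05, 2 were higher (22.2%, against 2.81% over all genes) and 0 lower. Without mutant skin 2 and 6 the median was 0.87, and 1 was higher, against 454 of all 8793 genes. For comparison, the melanoma arrays held mitfa at -0.40 to 3.36.

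The crest marker crestin was at the floor of the table, -6.64, in all 3 wild-type arrays. In mutant skin 1 to 6 it stood at -6.26, 0.25, -2.29, -4.07, -0.79 and -2.83, each above the floor in value, with the highest in mutant skin 2 and 5 and the lowest, close to the floor, in mutant skin 1. The change, at least 3.98 ± 0.99, missed the threshold (limma adjusted p = 0.211). Over 23 alternatives the adjusted p of crestin ranged from 0.0136 to 1.0, and 4 called it. The crest regulator sox10 had a change of -0.27 ± 0.68. None of 21 neural crest genes passed the test, against 0.136% of all genes. The median of the 21 was -0.26, or 0.06 without mutant skin 2 and 6. Xanthophore genes, of yellow pigment cells (7, median 0.08, with gch2 at -0.14 ± 0.55), and iridophore genes, of silver pigment cells (10, median 0.21, or -0.11 without mutant skin 2 and 6), had no called member either. The measured iridophore list holds mostly genes of purine synthesis, so it does not measure silver pigment cells alone. Its largest rise, 2.5, was that of the ubiquitin ligase gene trim63a, which is on the muscle list too. The purine enzyme gene adsl of this list had a change of -1.69 ± 0.38 without overlap (limma adjusted p = 0.139).

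Feedback genes of the MAP kinase pathway, downstream of BRAF, gave no call among 20, against 0.136% of all genes. The median of the 20 was -0.11 and turned to 0.10 without mutant skin 2 and 6. The transcription factor gene etv4 had a change of 1.72 ± 0.71 and its relative etv5b one of 0.73 ± 0.46, while the inhibitor gene spry4 and the phosphatase gene dusp6 had changes of -0.47 ± 0.97 and -0.08 ± 0.49. The early response gene egr1 stood at 1.4, 3.43 and 3.19 in wild-type skin and at -1.56 to 0.27 in 5 mutant arrays, and mutant skin 5 reached 3.13, for a change of -2.64 ± 0.89 (limma adjusted p = 0.462). Other immediate early genes were also highest among mutant arrays in mutant skin 5, such as fosab at 4.55 and klf4 at 4.46.

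The 30 genes of the p53 pathway list, which holds regulators and relatives of p53 beside its targets, gave no call, against 0.136% of all genes. The median of these 30 was 0.16. In 2 of them (6.67%, against 1.73% over all genes) the mutant arrays were all above the wild-type arrays: the caspase gene casp8 (1.41 ± 0.46, limma adjusted p = 0.427) and the cell death gene baxa (1.02 ± 0.49, limma adjusted p = 0.709). The cell death gene bbc3 had a change of 1.21 ± 0.51. The targets mdm2, the gene of the ligase that degrades p53, and ccng1, a cyclin gene, had changes of 0.48 ± 0.48 and -0.48 ± 0.29, and rps27l one of -0.86 ± 0.34. The cell death gene bida, which is not on the list, stood at -0.79, -0.74 and -1.12 in wild-type skin and at 0.02 to 1.36 in mutant skin without overlap, a change of 1.42 ± 0.30 (limma adjusted p = 0.104).

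Genes of myeloid cells, the granulocytes and macrophages, were higher in value in mutant skin without a call. Of 24 genes 17 had changes above 0 (70.8%, against 48.5% over all genes), and the median was 0.96. At an unadjusted p under 0.05, 3 were higher (12.5%, against 2.81% over all genes) and 0 lower. The granulin gene grna.1, a secreted growth factor gene, stood at -4.75, -3.01 and -3.85 in wild-type skin and at -0.03, -3.49, -1.14, -1.05, 0.32 and -0.15 in mutant skin. Only mutant skin 2 lay within the wild-type range, and the change of 2.95 ± 0.72 missed the threshold with all arrays (limma adjusted p = 0.19) and passed it without mutant skin 2 and 6 (limma adjusted p = 0.04). Over 24 alternatives its adjusted p ranged from 0.00402 to 1.0, and 4 called it. The complement gene c1qc had a change of 2.32 ± 0.95, the matrix protease gene mmp9 one of 1.78 ± 0.78 and the scavenger receptor gene marco one of 1.88 ± 0.88. The granulocyte markers lyz and mpx, chosen after their values were seen, had changes of 0.14 ± 1.02 and -0.04 ± 0.43. The list's level was 0.47 to 1.3 in mutant skin 1, 3, 4 and 5, -1.2 and -0.66 in mutant skin 2 and 6, and -1.2 to -0.09 in wild-type skin. The median was 1.54 without mutant skin 2 and 6. In that setting 11 of 24 members were higher at an unadjusted p under 0.05, against 454 of all 8793 genes. Of the 24, 1 was called higher, against 7 of all 8793 genes. The setting keeps wild-type skin 1, and in it the median was 0.70 for keratinocyte genes and -1.49 for oocyte genes. The part of this imbalance in the myeloid values was not tested.

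Interferon response genes had a median of 0.77 over 15 genes, with no call, against 0.136% of all genes. The transcription factor gene irf1b had a change of 1.85 ± 1.05, the GTPase gene gbp1 one of 1.53 ± 0.88 and the ubiquitin-like gene isg15 one of 1.08 ± 1.03, all with overlap. The cytokine signalling inhibitor gene socs1a stood at -0.74, -1.43 and -1.21 in wild-type skin and at -0.55 to 1.1 in mutant skin, without overlap (1.14 ± 0.38, limma adjusted p = 0.462). Acute phase and complement genes had a median of 0.60 over 20 genes. The itaconate enzyme gene irg1l, which acts in inflammation, stood at -0.59, -0.51 and -0.10 against -0.05 to 4.80, without overlap (2.33 ± 1.03, limma adjusted p = 0.641). The lymphoid list of 10 genes had a median of -0.14, or 0.07 without mutant skin 2 and 6, with the chemokine receptor gene cxcr4a at 1.4 ± 0.60 and the transcription factor gene runx3 at -1.43 ± 0.79.

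Genes of mitochondrial respiration were lower in value as a group. Of 70 genes of oxidative phosphorylation none was called, 66 changes were below 0 (94.3%, against 51.5% over all genes), and the median was -1.01. At an unadjusted p under 0.05, 31 were lower (44.3%, against 4.45% over all genes) and 0 higher. Every mutant array was below every wild-type array in 2 of the 70 genes (2.86%, against 1.47% over all genes). The complex I gene ndufab1b stood at 0.96, 1.75 and 2.2 in wild-type skin and at -0.40 to 0.85 in mutant skin, without overlap, with a change of -1.36 ± 0.35 (limma adjusted p = 0.243). The complex I genes ndufs8a and ndufa12 had changes of -1.52 ± 0.40 and -1.55 ± 0.52, the complex II gene sdha one of -1.49 ± 0.59 and the complex III gene cyc1 one of -1.32 ± 0.44. The level of the list was 0.13, 1.05 and 1.45 in wild-type skin and -1.0 to 0.86 in mutant skin, lowest in mutant skin 2 and 6. Without these 2 arrays the median was -0.55. In that setting 6 genes were lower and 1 higher at an unadjusted p under 0.05, against 354 and 454 of all 8793 genes. With the oocyte level as a covariate 56 were lower and 2 higher, against 629 and 456 of all 8793 genes. Without the arrays high in oocyte transcripts, which leaves 1 wild-type array, the median was -0.84.

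Muscle is rich in mitochondria, and the genes of skeletal muscle are given beside them. Of 49 muscle genes 45 had changes below 0 (91.8%, against 51.5% over all genes), and the median was -0.96. At an unadjusted p under 0.05, 2 were lower (4.08%, against 4.45% over all genes) and 1 higher (2.04%, against 2.81%). These shares are no larger than those of all genes. Every mutant array was below every wild-type array in 3 members (6.12%, against 1.47% over all genes). The list's level was 1.76, 2.66 and 2.97 in wild-type skin, 1.86 to 2.59 in mutant skin 1, 3, 4 and 5, and -0.29 and 0.10 in mutant skin 2 and 6. The median was -0.29 without mutant skin 2 and 6. With the muscle level as a covariate, fitted over all 15 arrays, the median of the oxidative phosphorylation genes was -0.79. In this fit 14 of them were lower and 0 higher at an unadjusted p under 0.05, against 302 and 241 of all 8793 genes. In mutant skin both list levels were lowest in arrays 2 and 6. Melanoma 6, however, had a higher muscle level than melanoma 1 to 5 (0.21 against -3.81 to -2.53). Its oxidative phosphorylation level was lower (-0.80 against -0.56 to -0.11). A common slope therefore cannot set the part of muscle in these genes, which was not tested. The sarcoplasmic reticulum gene srl stood at 3.40, 4.79 and 4.61 against -0.89 to 3.24, without overlap (-2.63 ± 0.88, limma adjusted p = 0.462), and the sarcomere gene myoz1b had a change of -2.69 ± 0.94. Outside the list, 2 genes named for their small p without overlap missed the threshold: the purine cycle gene adss1 stood at 3.89, 4.66 and 4.81 in wild-type skin and at -1.95 to 2.37 in mutant skin (-4.07 ± 0.82, limma adjusted p = 0.0984), and the growth factor gene fgf6a at 2.42, 4.3 and 5.07 against -1.21 to 2.19 (-3.27 ± 0.68, limma adjusted p = 0.104). The ubiquitin ligase gene trim63a, which marks wasting muscle, went the other way, with -2.53, -1.18 and 0.26 in wild-type skin and -1.79 to 2.86 in mutant skin (2.5 ± 1.09, limma adjusted p = 0.621). Similarly the kinase gene pdk2b, which holds back pyruvate oxidation, stood at -3.31, -2.27 and -2.39 against -1.54 to 3.28, without overlap (3.83 ± 0.96, limma adjusted p = 0.212).

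Chaperone genes were divided. None of 42 passed the test, against 0.136% of all genes, and the median was -0.11. At an unadjusted p under 0.05, 5 were lower (11.9%, against 4.45% over all genes) and 1 higher (2.38%, against 2.81%). Every mutant array was below every wild-type array in 3 of them (7.14%, against 1.47% over all genes). The cytosolic heat shock genes hsp90aa1.2 (-2.43 ± 0.64), hsp70.3 (-2.38 ± 0.86) and dnaja1 (-1.52 ± 0.38) had wild-type arrays above every mutant array, as did ahsa1a, an activator of HSP90 outside the list, with 3.76, 5.00 and 5.82 against -0.82 to 2.81 (-3.54 ± 0.74, limma adjusted p = 0.104). The collagen chaperone gene serpinh1b had a change of -3.11 ± 1.15 with overlap. The stress gene txnb, a thioredoxin, had a change of 2.07 ± 0.90.

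Genes of the skin itself gave no call, against 0.136% of all genes. Of 44 keratinocyte genes 31 changes were below 0 (70.5%, against 51.5% over all genes). The median was -0.22, and it was 0.70 without mutant skin 2 and 6, so its sign turned. The keratin gene krt99 stood at 1.22, 1.25 and 1.99 in wild-type skin and at -0.60 to 1.19 in mutant skin, without overlap (-1.32 ± 0.38, limma adjusted p = 0.386), and krt5, of the basal layer, had a change of -1.14 ± 0.83. The tight junction gene cldn3c had a change of 1.52 ± 0.88. The medians were -0.05 over 18 scale and bone genes, with the bone matrix gene spp1 at 1.24 ± 0.89, and 0.00 over 37 extracellular matrix genes, with the crosslinking enzyme gene loxa at 1.70 ± 0.91. Without mutant skin 2 and 6 these medians were 0.92 and 0.70. The mucin gene muc5.1 had a change of -1.55 ± 0.90.

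**Figure D5:**
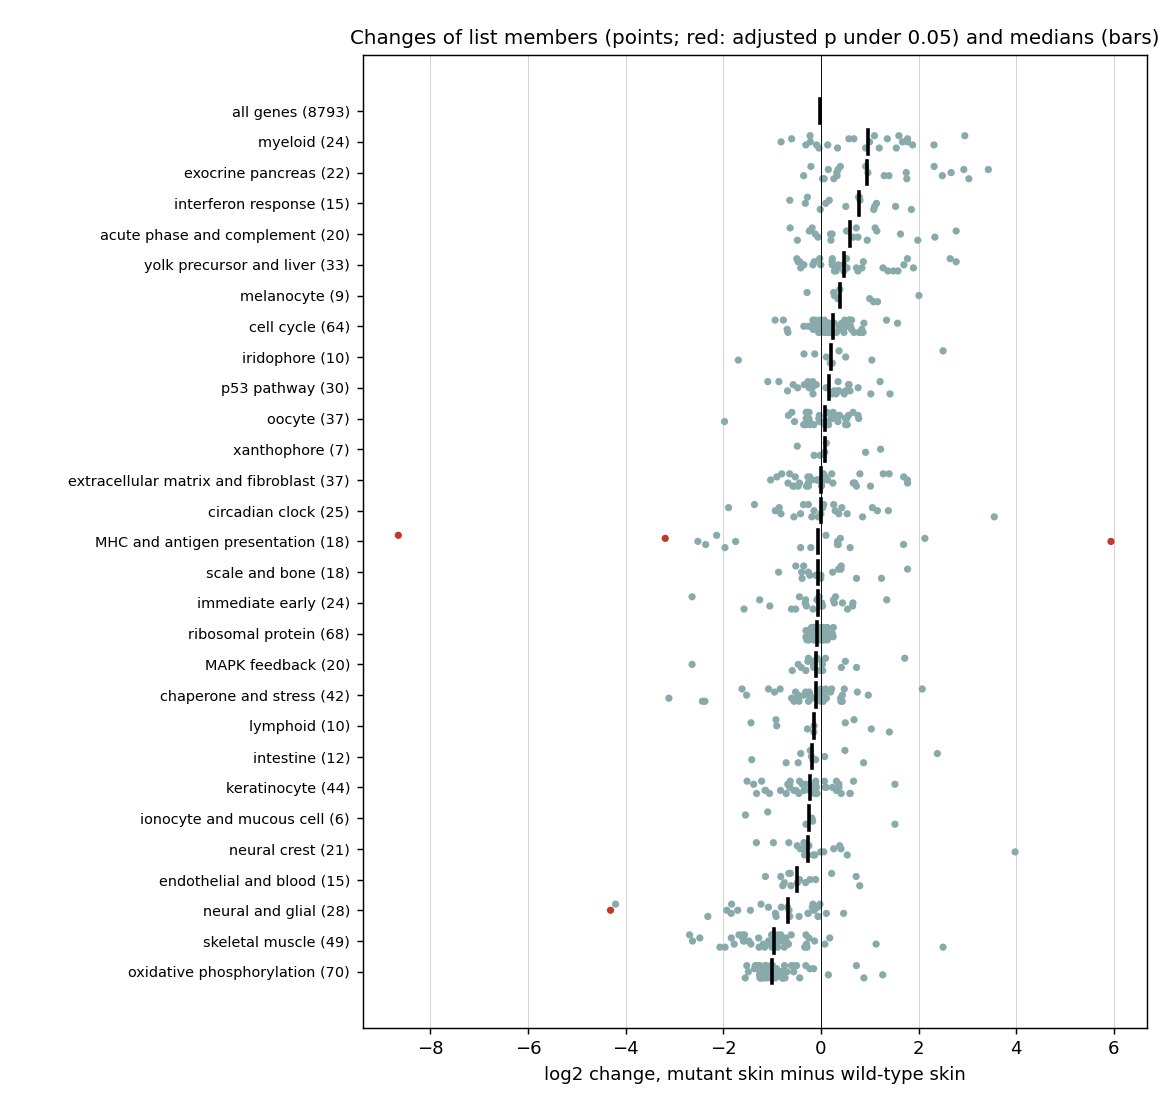
Log2 change (x axis, mutant skin minus wild-type skin) of every measured member of 28 gene lists, with the number of members in parentheses and the median as a black bar; red points passed the threshold. Red points lie in the MHC list, at -8.66, -3.19 and 5.94, and at -4.31 in the neural list, and the lowest medians are those of the oxidative phosphorylation and muscle lists, at -1.01 and -0.96.

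Transcripts of organs that are not skin were present in unequal amounts. Of 22 genes of the exocrine pancreas, the gland of digestive enzymes, 20 had changes above 0 (90.9%, against 48.5% over all genes). The median was 0.94, and none was called, against 0.136% of all genes. In 2 of the 22 every mutant array was above every wild-type array, against 1.73% of all genes. The amylase gene amy2a stood at -0.49, -0.31 and -0.18 in wild-type skin and at 5.34, 0.18, 1.16, 7.51, 2.47 and 1.96 in mutant skin 1 to 6, without overlap (3.43 ± 1.17, limma adjusted p = 0.462). The trypsin gene prss1 stood at 0.11, 0.32 and 0.21 against 5.18, 1.06, 1.34, 7.36, 3.29 and 0.60, also without overlap (2.93 ± 1.13, limma adjusted p = 0.538). Both were highest in mutant skin 4 and 1. Without mutant skin 2 and 6 the median of the list was 1.69, with 11 of 22 members higher at an unadjusted p under 0.05, against 454 of 8793 genes. The part of these transcripts in other differences was not tested. Liver genes had a median of 0.47 over 33 genes, and the yolk precursor gene vtg2 reached 10.32 in mutant skin 4, 9.72 in mutant skin 6 and 6.67 in wild-type skin 2. The oocyte list had a median of 0.08 and no called member. Leaving out mutant skin 2 and 6 unbalanced the groups in oocyte content, with a median of -1.49, and the median was -0.20 without the arrays high in oocyte transcripts. Over the 64 cell cycle genes the median was 0.24, and it was -0.57 without mutant skin 2 and 6.

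Clock genes, which oscillate with the time of day, gave no call among 25, against 0.136% of all genes, and had a median of 0.00. The repressor gene nfil3-5 stood at -4.68, -3.90 and -2.10 in wild-type skin and at 0.47, -1.07, -0.86, 0.76, 2.11 and -1.47 in mutant skin, without overlap (3.55 ± 0.81, limma adjusted p = 0.153). The activator genes tefa and tefb, which bind related sites, had changes of -1.89 ± 0.74 and -1.36 ± 0.44, and the clock gene per2 one of -0.06 ± 0.88. The time of sampling is not stated. Ribosomal protein genes, 68 in number, had changes of -0.31 to 0.25 and a median of -0.08, or 0.19 without mutant skin 2 and 6.

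Among the genes with the smallest p-values past the called ones, those with mutant skin higher and without overlap were led by h2ax, the mitochondrial calcium uptake gene mcur1 (1.80 ± 0.37, limma adjusted p = 0.104), the cell death gene bida (1.42 ± 0.30, limma adjusted p = 0.104) and the glycosylation gene mpdu1b (2.53 ± 0.54, limma adjusted p = 0.106). They also included the amino acid transporter subunit gene slc3a2a (2.16 ± 0.53), the gene ero1b of disulfide formation in the endoplasmic reticulum (1.49 ± 0.37), the nucleotide kinase gene nme3 (2.59 ± 0.60) and the casein kinase gene csnk1g2a (1.19 ± 0.28), with limma adjusted p = 0.162 to 0.20. In nme3 the wild-type arrays stood at -3.19, -4.08 and -3.21 and the mutant arrays at -2.45 to -0.15.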

How the data were processed

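Total RNA of each sample, extracted with Trizol per the labels' protocols, was measured on 1 Affymetrix zebrafish array. The deposited values are on a log2 scale and were made with GCRMA, per the submitters' processing notes. The reference level subtracted per probe set is not given in the sources used here, and -6.64 is the lowest value of the table. Of 15617 probe sets, 115 control sets were left out and 15502 tested. A single symbol was given for 10795 of them, several for 135 and none for 4572, and a gene's value is the mean of its probe sets. Symbols were updated, and gene order taken, from the RefSeq table of assembly GRCz12tu (10711 probe sets matched). Its start positions served only to order the protein-coding genes.

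All 15 arrays were fitted with 3 group means in limma 3.58.1 (R 4.3.3), and mutant skin minus wild-type skin was tested two-sided with Benjamini-Hochberg adjustment over all genes, or over all probe sets, at 0.05. Values after ± are standard errors for changes and SDs for levels. The script was tested on simulated data. The named genes are those past the threshold, those of smallest p without overlap in each direction, the largest changes of each list and a few fixed markers, and others are marked as chosen after their values were seen. The comparison and the gene lists were chosen with earlier results of these data known. Nothing says that samples came from separate fish, so p-values measure the spread between these samples only, and the number of arrays limits the precision. The replicate numbers were not taken as pairs. Whether mutant skin and melanoma of the same number came from the same fish was not tested. Alternatives changed the arrays used, normalization, weights, covariates, filters and thresholds, and 1 array was left out at a time. The plots were made in Python 3.11.15 with matplotlib 3.10.9.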

Additional observations from a re-analysis of the deposited data

Results flagged for a closer look

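In 5 of 144 values tested, 1 mutant skin array lay far from the other 5 by Dixon's criterion, a mark that chance gives about 1 in 20 times. Mutant skin 6 was low in kita, at -4.01, in spry4, at -4.55, and in trim63a, at -1.79. Mutant skin 2 was low in krt5, at -2.16. The level of the iridophore list was high in mutant skin 2, at 0.18.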

How the results depend on the processing

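With 12 genes and 30 probe sets called, the counts were 7 and 12 with only the 9 skin arrays in the fit, 54 and 116 with the oocyte level as a covariate, 27 and 47 without the arrays high in oocyte transcripts, and 1 and 3 with only those arrays. They were 531 and 712 with array quality weights, and 286 and 1919 with weights by REML, a setting chosen after seeing the data. The weights gave wild-type skin 2 a weight of 6.81 and by REML of 56.5. Leaving out 1 array gave 7 to 21 genes and 15 to 54 probe sets, with the lowest counts without wild-type skin 3 and the highest without wild-type skin 1. At an adjusted p under 0.10 there were 50 probe sets. A replicate block gave 8 genes and 22 probe sets. Deviations of equally numbered skins correlated at 0.02, -0.43 and 0.78 for numbers 1 to 3, so the numbers were not taken as pairs. For the 207 single genes followed through 24 alternatives, 4719 of 4963 values kept their side of the threshold, 61 lost the call and 183 gained one. In 145 of the 4719 the sign turned, each below the threshold in both fits, and 0 called values reversed. Without the arrays high in oocyte transcripts, wild-type skin is 1 array, whose spread is taken from that of the remaining arrays. The call of mhc1ufa was kept throughout, with changes of -9.02 to -7.61, and those of mhc2daa, snap25a and sppl2 were lost only with the arrays high in oocyte transcripts alone. The calls of mhc1uda and vamp1a were also lost with the 9 skin arrays, and that of wls without the arrays high in oocyte transcripts. With the 9 skin arrays the calls of adam23a, tsc1a, tubb2 and zic1 were lost too, and 6 of the 12 were kept. The causes were not tested.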
